A study of Mus musculus with 18 samples.

Results

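The 10 carboxylesterase genes described here are 5 of the Ces2 family (Ces2e, Ces2c, Ces2b, Ces2a and Ces2g) and 5 of the Ces1 family (Ces1c, Ces1d, Ces1e, Ces1f and Ces1g), among 20660 genes that the array's probes could be named for. The set was chosen from the log2 ratios of Ces2e, which stood out in the lungs of dosed mice, and its relatives were added by family to see whether other carboxylesterases moved with it. The values of Ces2e against the vehicle are therefore a description and carry no test. The members are measured by 13 probes, 3 of them for Ces2c and 2 for Ces2e, and the brightest probe stands for a gene. An older name of Ces2e is Ces5, which should not be taken for Ces5a, a separate gene.

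Carboxylesterases are enzymes of the endoplasmic reticulum that split ester, thioester and amide bonds. They activate or clear many drugs and pesticides, and they also act on the body's own lipids, such as triacylglycerols and cholesteryl esters. Liver and intestine are their best known sites, and the lung also holds them. The mouse genome carries more of these genes than the human one, in tandem runs of close copies, with the Ces1 genes in one run and the Ces2 genes in another on the same chromosome.

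The mice were adult males of the MutaTMMouse strain, about 12 weeks old, gavaged every day for 28 days, and their lungs were taken 72 h after the last dose. The 4PAH-Mix holds 4 polycyclic aromatic hydrocarbons (benzo[a]pyrene, benz[a]anthracene, benzo[b]fluoranthene and chrysene) in olive oil. There were 5 vehicle mice given olive oil only, 4 at the low dose of 12.5, 5 at the medium dose of 25 and 4 at the high dose of 50 mg benzo[a]pyrene (BaP) equivalents/kg body weight/day. MutaTMMouse animals carry a bacterial reporter transgene for mutation assays, which the vehicle mice share with the dosed mice. Each mouse has 1 array, on which Cy5-labelled RNA from pieces of whole lung was set against Cy3-labelled Universal Mouse Reference RNA from 11 mouse cell lines. Each value below is a log2 ratio of lung over reference on loess-normalized median intensities, or a difference between such ratios, and ratios of different probes are not compared as levels. In pieces of whole lung, a change in the share of a cell type and a change of RNA per cell cannot be told apart.

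The 18 arrays had 51.5 to 61.1% of probes well above background in Cy5, which is the scanner software's call that a spot stands clear of its local background, and the log2 ratios of any 2 arrays correlated at 0.937 to 0.974 over probes. The arrays sat on 3 slides that each held mice of all 4 groups, and within a slide each dose group kept to its own array column, so that column and dose cannot be told apart. Markers of club cells, alveolar type 2 cells, ciliated cells, alveolar macrophages and endothelium, as far as they had a probe, were well above background on all 18 arrays. Of the 6 liver markers, transthyretin (Ttr) and apolipoprotein A1 (Apoa1) were well above background on 0 of 18 arrays, Fgb on 1, albumin (Alb) on 5, Serpina1a on 16 and Apob on 17. Of the 4 intestinal markers, Apoa4 and Alpi were on 0 of 18 and Fabp2 and Vil1 on 15.

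The letters before the start of 3 Ces2 genes are shown because Ces2e and Ces2c had the highest dose differences of the family, while the probe of their relative Ces2a was not well above background. The stretches are the 250 bases before the RefSeq gene start in build GRCm38.p6, on the plus strand, at chr8:104926010-104926259 for Ces2e, chr8:104846818-104847067 for Ces2c and chr8:104733753-104734002 for Ces2a. Capitals mark the longest run of letters that the Ces2e and Ces2c stretches share.
Ces2e: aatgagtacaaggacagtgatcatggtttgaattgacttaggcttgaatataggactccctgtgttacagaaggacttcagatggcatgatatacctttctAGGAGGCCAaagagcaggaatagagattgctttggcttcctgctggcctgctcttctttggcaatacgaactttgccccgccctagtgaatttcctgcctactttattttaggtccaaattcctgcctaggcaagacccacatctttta
Ces2c: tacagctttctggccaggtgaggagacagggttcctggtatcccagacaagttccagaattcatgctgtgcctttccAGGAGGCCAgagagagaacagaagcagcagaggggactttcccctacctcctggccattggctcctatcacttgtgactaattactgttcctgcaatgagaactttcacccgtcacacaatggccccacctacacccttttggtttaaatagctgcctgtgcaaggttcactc
Ces2a: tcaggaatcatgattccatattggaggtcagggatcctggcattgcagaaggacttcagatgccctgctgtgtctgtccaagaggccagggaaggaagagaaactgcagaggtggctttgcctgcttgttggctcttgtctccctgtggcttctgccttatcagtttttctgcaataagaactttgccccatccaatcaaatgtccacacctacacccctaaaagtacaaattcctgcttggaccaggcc
The shared run, AGGAGGCCA, has 9 letters and was present on either strand in 209 of 32851 RefSeq promoters of this length, a share of 0.636%. The run was picked for being shared by Ces2e and Ces2c, and the exact run was in no other of the 15 carboxylesterase promoters matched in the RefSeq table. The stretches of Ces2a and Ces2f hold AAGAGGCCA, which differs from it in a single letter. The members without a promoter in that table were Ces2b, Ces1d and Ces1f. Over the whole stretch the promoters of Ces2e and Ces2c were 68.2% identical over 217 aligned bases, those of Ces2e and Ces2a 69.9% over 216, and those of Ces2c and Ces2a 68.3% over 243. These pairs of promoters are thus about equally alike. The promoter of Ces2f was 72.1% identical to that of Ces2e over 201 aligned bases and 74.9% to that of Ces2c over 211. The core letters bound by the aryl hydrocarbon receptor, GCGTG, the E-box CACGTG of clock proteins, the NRF2 core TGACNNNGC and the hexamer AGTTCA of nuclear receptors were searched on both strands. They occur in 28.2%, 6.02%, 10.2% and 11.8% of all promoters of this length. None of these letters was in the window of Ces2a, Ces2c, Ces2e or Ces2g, and no match says only that these exact letters are not in these 250 bases. Variants of the hexamer were not searched. One of them, AGGTCA, differs from AGTTCA in a single letter and is in the Ces2a stretch above.

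Ces2e, an esterase known from intestine and liver, was low in vehicle lungs and higher in every dosed mouse. The probe of Ces2e, A_55_P1959500, was well above background in both channels on all 18 arrays. In the 5 vehicle mice its log2 ratio was 0.61, 0.23, -0.30, 0.47 and 0.60 in mice 1 to 5. In the low dose mice it was 2.48, 2.48, 1.87 and 2.67 in mice 6, 7, 9 and 10. In the medium dose mice it was 2.56, 3.02, 2.36, 2.69 and 2.49 in mice 11 to 15. In the high dose mice it was 3.14, 2.78, 2.77 and 3.26 in mice 16, 17, 18 and 20. The lowest dosed mouse, low dose mouse 9 at 1.87, lay above the highest vehicle mouse at 0.61, so that no dosed group overlapped the vehicle group. All 4 high dose mice also lay above all 4 low dose mice, while the low and medium groups overlapped, as did the medium and high groups.

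The mean log2 ratio of Ces2e was 0.32 ± 0.38 (SD, n = 5) in vehicle mice, and 2.38 ± 0.35 (n = 4), 2.62 ± 0.25 (n = 5) and 2.99 ± 0.25 (n = 4) for the low, medium and high dose. The difference from vehicle was 2.06 (SE 0.18), 2.30 (SE 0.17) and 2.67 (SE 0.18) on the log2 scale, or 4.16-fold, 4.94-fold and 6.37-fold. The step from vehicle to the low dose was thus larger than the further step of 0.61 (SE 0.19) from the low to the high dose. Among the 13467 genes whose probe was well above background on all arrays, the log2 difference of Ces2e ranked 1 in low dose, 2 in medium dose and 2 in high dose mice. The Cy5 intensity behind these ratios was 104 to 279 in vehicle mice, over a local background of 72.5 (median), and 1061 to 2693 in high dose mice over 80.2. The ratios were not background-subtracted, as the study's methods state, and the scanner software's background-subtracted ratios of the same spots gave 2.59, 2.81 and 3.15 at the 3 doses. In the plot of members by mouse the dosed mice of Ces2e sit apart from the vehicle mice.

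**Figure D1:**
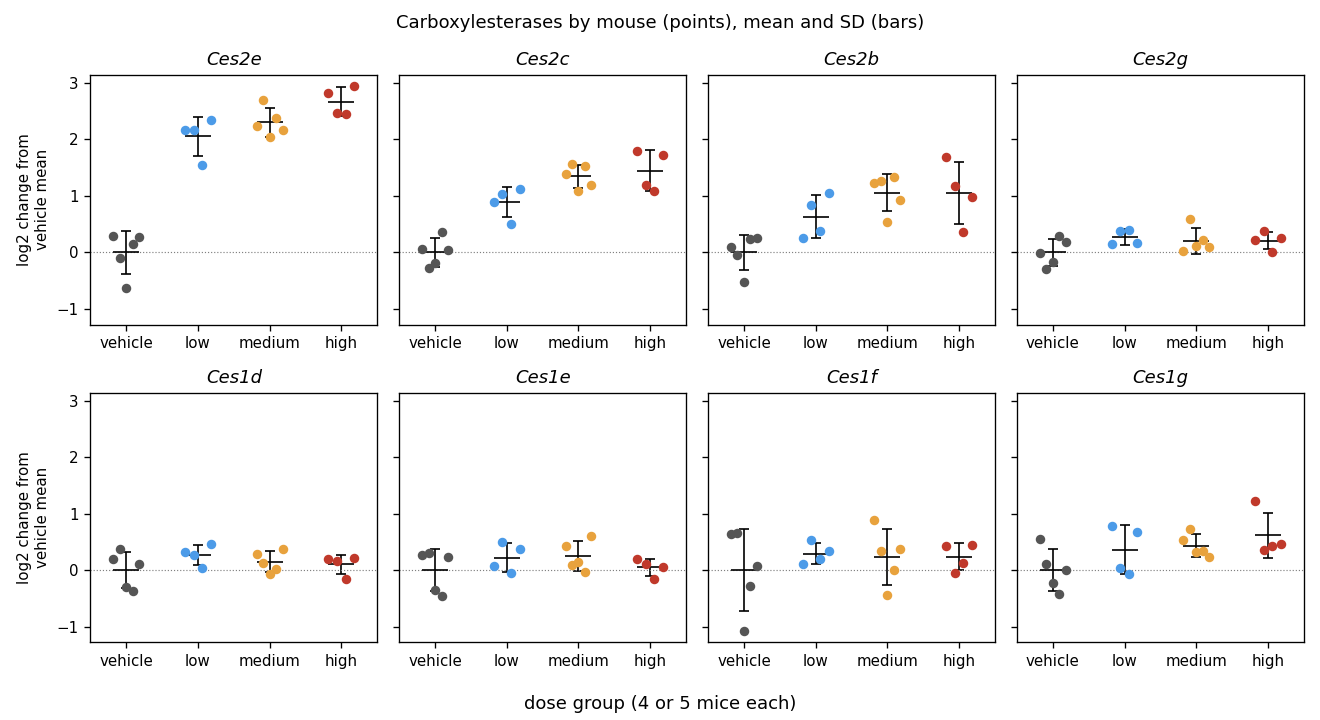
Log2 change from the mean of the vehicle mice (vertical axis) by dose group (horizontal axis) for the 8 members whose probe was well above background in Cy5 on all 18 arrays; each point is 1 mouse, and the bar and whiskers are the mean and SD. Dosed mice of Ces2e and Ces2c lie above all vehicle mice, those of Ces2b do so in the medium and high groups, and the groups of the other 5 genes overlap at each dose.

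Ces2c was the relative with the next largest difference. It is the acylcarnitine hydrolase of mouse liver and intestine, with activity on neutral lipids and on drugs. On its brightest probe, A_55_P2005213, the log2 ratio in vehicle mice 1 to 5 was 0.73, 0.40, 0.49, 1.05 and 0.73. It was 1.57, 1.71, 1.19 and 1.79 in low dose mice 6, 7, 9 and 10, and 2.06, 2.24, 1.76, 2.20 and 1.87 in medium dose mice 11 to 15. It was 2.47, 1.87, 1.76 and 2.40 in high dose mice 16, 17, 18 and 20. Every dosed mouse lay above all 5 vehicle mice, with vehicle mouse 4 the highest of them and low dose mouse 9 the lowest of the dosed. The medium and high groups overlapped.

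Ces2c rose by 0.89 at the low dose (SE 0.16, 1.85-fold, limma adjusted p = 0.0205). It rose by 1.35 in medium dose mice (SE 0.15, 2.54-fold, adjusted p = 2.6e-05) and by 1.45 in high dose mice (SE 0.16, 2.73-fold, adjusted p = 1.3e-05). The two-sided exact permutation test gave p = 0.00794 at each dose. This is the smallest that groups of this size allow, and the dim probe of Ces2a also reached it, downward, at the high dose. A total of 27 such tests were run, for the 9 relatives at 3 doses, and their p-values are not adjusted. The call at the low dose was lost without low dose mouse 6, 7 or 10 or vehicle mouse 2 or 3 (adjusted p = 0.0588 to 0.110), with the scanner software's ratios (1.06, adjusted p = 0.101) and with median centring (0.87, adjusted p = 1.000). At the medium and high dose Ces2c passed under all alternatives run.

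The 3 probes of Ces2c did not show the same size. Probe A_55_P2124712, also well above background on all 18 arrays, differed from vehicle by 0.21 (SE 0.12, limma adjusted p = 0.689), 0.65 (SE 0.11, adjusted p = 0.0017) and 0.56 (SE 0.12, adjusted p = 0.00715) at the 3 doses. The medium dose was called, while in high dose mice its 1.47-fold difference fell short of the 1.5-fold limit. Its medium and high dose mice all lay above the highest vehicle mouse, at 0.38 to 0.82 and 0.31 to 0.74 against 0.29. Probe A_52_P318361 was well above background in Cy5 on 8 of 18 arrays and differed by 0.16, 0.34 and 0.29, with no call. The Cy5 intensity of these probes in high dose mice was 605 to 1200 for the brightest, 163 to 312 for the second and 95 to 139 for the third, each over a local background near 78.5. The part of the unsubtracted background in the disagreement was not tested.

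Ces2e has a second probe as well. Probe A_51_P179919 was well above background on 0 of 18 arrays, with Cy5 intensities of 68 to 79 in vehicle and 92 to 106 in high dose mice over a local background of 74 and 78.5. No fold is given for it. Its log2 ratios ran from -0.20 to 0.10 in vehicle mice and from 0.24 to 0.42 in high dose mice, so that these groups did not overlap. Whether a probe of one Ces2 gene also binds transcripts of its close copies was not tested, since the values come from spots whose letters were not used here.

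**Figure D2:**
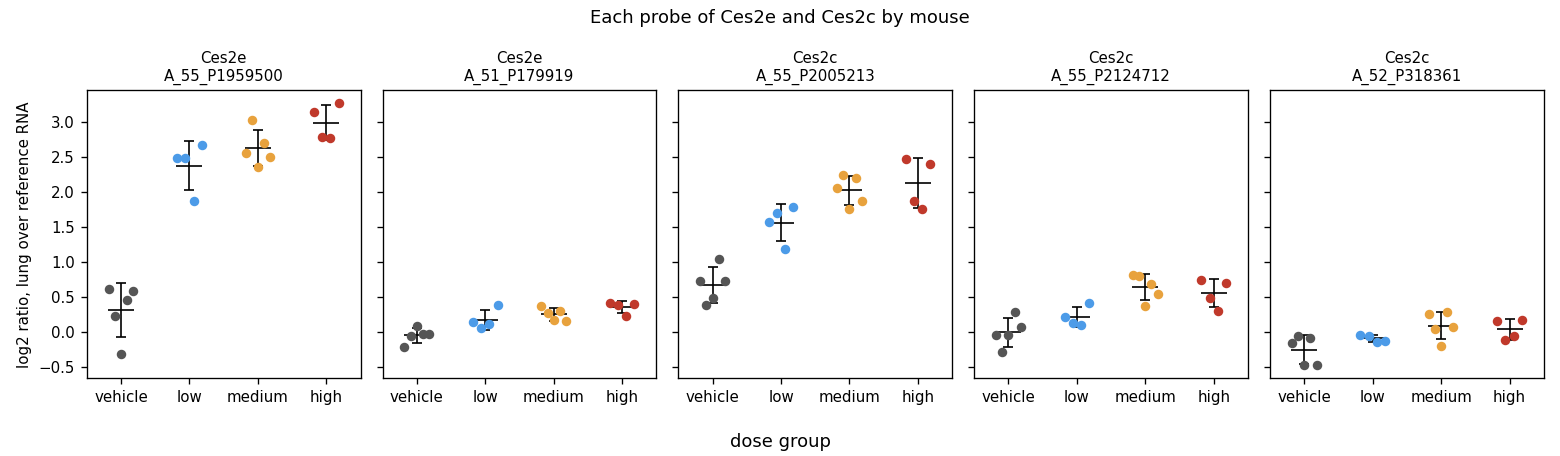
Log2 ratio of lung over reference RNA (vertical axis) by dose group (horizontal axis) for the 2 probes of Ces2e and the 3 probes of Ces2c; points are mice, bars and whiskers the mean and SD. The brightest probe of each gene spans the widest range, and the dim second Ces2e probe stays between -0.20 and 0.42.

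Ces2b, the gene next to Ces2c in the run, was the third member called. Its log2 ratio was 1.26, 1.12, 0.65, 1.40 and 1.42 in vehicle mice 1 to 5, and 1.42, 2.01, 1.54 and 2.22 in low dose mice 6, 7, 9 and 10. It was 2.40, 2.44, 1.70, 2.51 and 2.10 in medium dose mice 11 to 15, and 2.85, 2.35, 1.52 and 2.15 in high dose mice 16, 17, 18 and 20. All medium and high dose mice lay above the highest vehicle mouse, while low dose mouse 6 lay within the vehicle range. The high dose mice spread most, from mouse 18 near the vehicle mice to mouse 16 at the top.

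The difference of Ces2b from vehicle was 0.63 at the low dose (SE 0.22, limma adjusted p = 0.409), which did not pass. Ces2b rose by 1.06 in medium dose mice (SE 0.21, 2.08-fold, adjusted p = 0.00609) and by 1.05 in high dose mice (SE 0.22, 2.07-fold, adjusted p = 0.00785). The two-sided exact permutation test gave p = 0.0159, 0.00794 and 0.00794. Both calls were lost with the scanner software's ratios (1.27, adjusted p = 0.0722, and 1.41, adjusted p = 0.0536) and with median centring (0.97, adjusted p = 0.364, and 1.01, adjusted p = 0.263), which kept the direction. The reference channel of this probe was well above background on 11 of 18 arrays, and the Cy5 intensity was 153 to 331 in vehicle and 275 to 742 in high dose mice.

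Within the 3 slides, each of which held all 4 groups, the differences of these 3 genes had the same direction throughout. For Ces2e the high dose minus vehicle difference was 2.54, 2.69 and 2.67 on slides 1, 2 and 3. For Ces2c it was 1.61, 1.00 and 1.67, and for Ces2b 1.41, 0.50 and 0.72. At the low dose the 3 slides gave 2.06, 1.79 and 2.07 for Ces2e, 1.08, 0.42 and 1.06 for Ces2c and 0.53, 0.52 and 0.80 for Ces2b. Ces2e thus varied least between slides in proportion to its size. With the slide as a block, limma gave 2.62 (SE 0.15) for Ces2e, 1.42 (SE 0.16, adjusted p = 2.3e-05) for Ces2c and 0.99 (SE 0.20, adjusted p = 0.00572) for Ces2b at the high dose.

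**Figure D3:**
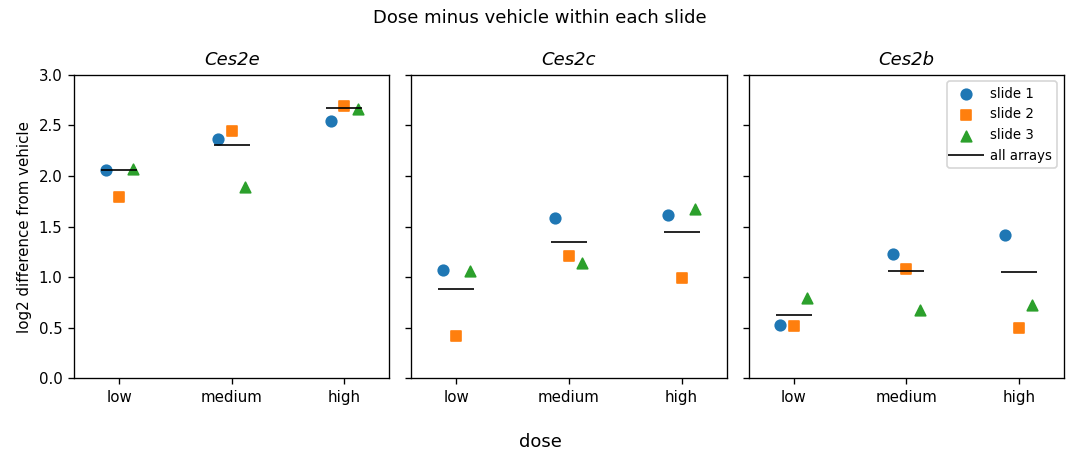
Log2 difference from vehicle (vertical axis) at each dose (horizontal axis) within each of the 3 slides, which hold 1 or 2 mice of a group, for Ces2e, Ces2c and Ces2b; the black bar is the difference over all arrays. All 27 within-slide differences are above 0, and those of Ces2c and Ces2b at the high dose spread from 1.00 to 1.67 and from 0.50 to 1.41.

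Ces2g and Ces2a, the remaining Ces2 members, were not called at any dose. Ces2g, at the far side of Ces2e in the run, had log2 ratios of -0.89 to -0.32 in vehicle, -0.45 to -0.21 in low dose, -0.58 to -0.01 in medium dose and -0.60 to -0.23 in high dose mice. These ranges overlap at every dose. Its difference from vehicle was 0.27, 0.21 and 0.21 (SE 0.12 at each dose, limma adjusted p = 0.593, 0.43 and 0.45), with a 95% interval at the high dose from -0.05 to 0.47. Ces2a, a liver and intestinal triacylglycerol hydrolase, was well above background on 1 of 18 arrays, that of low dose mouse 7, where both channels were bright (265.5 in Cy5 and 339.5 in Cy3). On the other arrays its Cy5 intensity was 70 to 85.5, and no fold is given.

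Of the Ces1 family, 4 of 5 members were well above background in Cy5 on all 18 arrays and none was called at any dose. Ces1d, the triacylglycerol hydrolase also known as TGH, had Cy5 intensities of 8017 to 28742. Its log2 ratio ran from 6.46 to 7.20 in vehicle mice and from 6.68 to 7.04 in high dose mice, so that the high dose mice all lay within the vehicle range. Its difference was 0.27, 0.15 and 0.10 (SE 0.14, 0.13 and 0.14, limma adjusted p = 0.655, 0.683 and 0.814), with a 95% interval at the high dose from -0.18 to 0.39. Ces1e, known as egasyn, the esterase that holds beta-glucuronidase in the endoplasmic reticulum, had log2 ratios of 2.74 to 3.51 in vehicle and 3.05 to 3.40 in high dose mice. It differed by 0.22, 0.25 and 0.05 (SE 0.16, 0.15 and 0.16, adjusted p = 0.8, 0.493 and 0.94). The high dose mice were again inside the vehicle range.

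Ces1f, listed under the older name TGH-2, spread most among vehicle mice, from 2.76 in mouse 3 to 4.49 in mouse 2. Its reference channel was well above background on 2 of 18 arrays. Its dosed mice lay between 3.39 and 4.73, and its difference was 0.29, 0.23 and 0.24 (SE 0.27, 0.26 and 0.27, adjusted p = 0.862, 0.771 and 0.767). With this spread the 95% interval at the high dose ran from -0.33 to 0.81, so that it holds 0 as well as a rise of up to 0.81. Vehicle mouse 3 was the lowest vehicle mouse for Ces2e and Ces2b as well, and the second lowest for Ces1d, Ces1e and Ces1g. Ces1c, the esterase secreted into plasma, was well above background on 0 of 18 arrays, with Cy5 intensities of 69 to 94 over group medians of the local background of 71 to 80.5.

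Ces1g, an esterase of liver linked to lipid secretion, came closest to a call in the Ces1 family. Its log2 ratio ran from 0.91 in mouse 4 to 1.90 in mouse 1 among the vehicle mice, with a median of 1.33, and was 2.56, 1.69, 1.76 and 1.79 in high dose mice 16, 17, 18 and 20. Only mouse 16 lay above the highest vehicle mouse, mouse 1. The difference was 0.36, 0.43 and 0.61 (SE 0.20, 0.19 and 0.20, limma adjusted p = 0.707, 0.274 and 0.103), and the two-sided exact permutation test gave p = 0.206, 0.0714 and 0.0476. The high dose difference passed without vehicle mouse 1 (0.75, adjusted p = 0.0395), with scale normalization between arrays (0.72, adjusted p = 0.0490) and with Cy5 alone (0.62, adjusted p = 0.0480), and it was 0.27 with the scanner software's ratios. Its reference channel was well above background on 0 of 18 arrays.

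**Figure D4:**
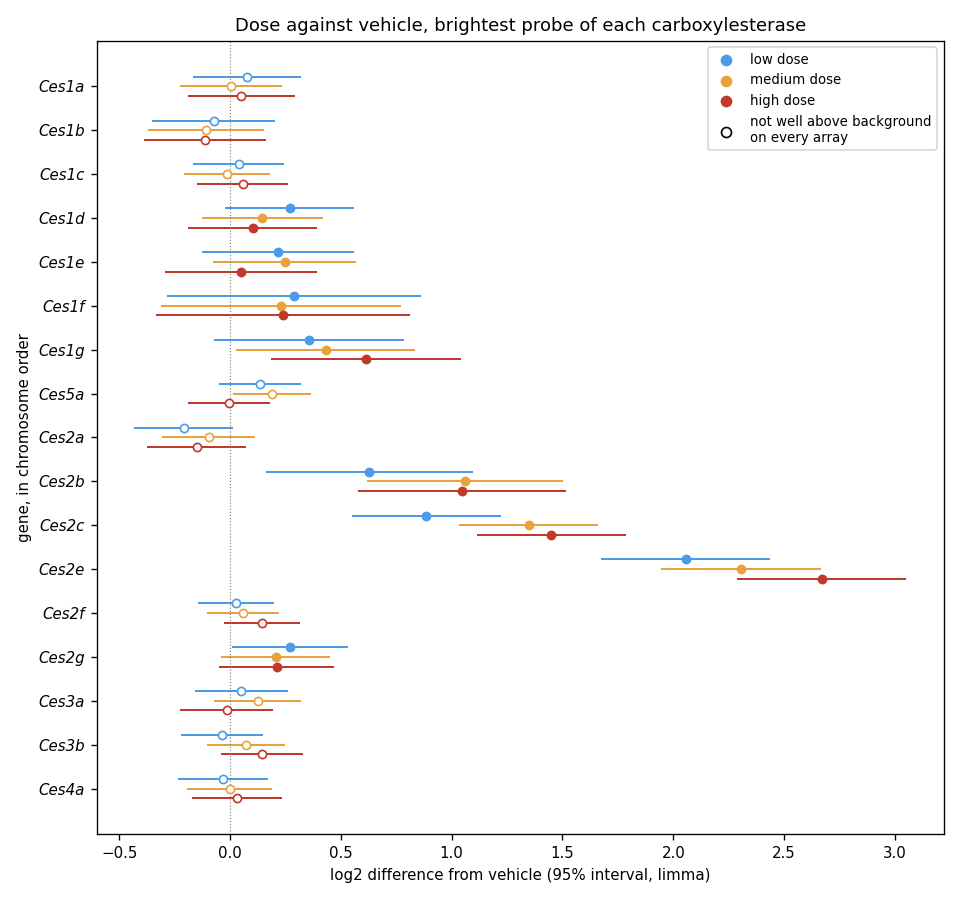
Log2 difference from vehicle with its 95% interval from limma (horizontal axis) at the low, medium and high dose for the brightest probe of each carboxylesterase with a probe (vertical axis, in chromosome order); open circles are probes not well above background on every array. The differences of Ces2b, Ces2c and Ces2e, which stand next to each other among the measured genes, lie to the right of the others, and 2.67 for Ces2e at the high dose is the highest.

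Counted over the family, a member counted as called where limma's adjusted p was at most 0.05 and the fold change at least 1.5. At the low dose 2 of 10 members were called higher, Ces2e and Ces2c, where 0.0647% of all 55681 probes were called higher, and 0.126% of the 26199 probes well above background in Cy5 on all arrays. At the medium dose 3 of 10, Ces2e, Ces2c and Ces2b, were called higher, against 0.278% of all probes and 0.561% of the probes well above background. At the high dose the same 3 of 10 were called higher, against 0.399% and 0.79%. The call of Ces2e in these counts was fixed by how the set was chosen. No member was called lower at any dose. At an unadjusted p under 0.05 there were 4 members at each dose, namely Ces2e, Ces2c and Ces2b with Ces2g at the low dose and with Ces1g at both higher doses. Of all probes, 8.01%, 15.3% and 15.7% were under that limit at the 3 doses. By probe, 2, 4 and 3 of the members' 13 probes were called higher at the 3 doses. The median difference of the 10 members was 0.28, 0.24 and 0.22, and that of the 8 members well above background on all arrays, so without Ces1c and Ces2a, was 0.32, 0.34 and 0.43, beside 0.00 for all probes at each dose. Calls were thus not limited to the probe of Ces2e. They were made on probes of 3 of the 4 Ces2 members well above background on all arrays, and on 0 of the 4 such Ces1 members. Whether the probes of Ces2c and Ces2b also took up Ces2e transcripts was not tested. A difference between the Ces2 and Ces1 families was not tested.

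Between the doses the members differed less. From the low to the high dose the difference was 0.61 (SE 0.19) for Ces2e, 0.56 (SE 0.17, limma adjusted p = 0.432) for Ces2c and 0.42 (SE 0.24, adjusted p = 0.803) for Ces2b. Of the 10 members 0 were called by limma, where 0.0449% of all probes were called either way. An unadjusted p under 0.05 was found for 2 members, Ces2c and Ces2e, the latter chosen for its values, and for 6.71% of all probes. From medium to high the difference of Ces2c was 0.10 and that of Ces2b -0.01, with 95% intervals of -0.23 to 0.43 and -0.48 to 0.45. All comparisons with vehicle use the same 5 vehicle arrays, so they are not independent of each other.

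The other carboxylesterases add no call. Of 10 further genes of the family, 7 had a probe (Ces1a, Ces1b, Ces2f, Ces3a, Ces3b, Ces4a and Ces5a), and none of these was well above background in Cy5 on any array or called by limma at any dose (0, 1 and 0 at an unadjusted p under 0.05). Ces2f, which lies between Ces2e and Ces2g, is among them. Of 13 other enzymes that split esters, among them arylesterases, cholinesterases and lipases, 0 were called at each dose (0, 2 and 6 at an unadjusted p under 0.05, where 8.01%, 15.3% and 15.7% of all probes were under it). The furthest was Bche, butyrylcholinesterase, at 0.43 (SE 0.19, limma adjusted p = 0.255), and Mgll, monoacylglycerol lipase, at -0.39 (SE 0.12, adjusted p = 0.0684), both at the high dose.

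In liver, carboxylesterase genes are among those switched on through the xenobiotic receptors CAR and PXR. Of 13 genes for these receptors, their partner and their liver targets, 12 had a probe and 0 were called at each dose (0, 0 and 2 at an unadjusted p under 0.05). Of these 12, only 7 were well above background in Cy5 on all 18 arrays, and 1, Abcc2, was so on none. Cyp3a11 was well above background in 4 vehicle, 2 low dose, 5 medium dose and 1 high dose mice, and Cyp2c55 in 1, 2, 1 and 1. A change of such dim genes could not be measured well. Cyp2b10, the classical CAR target, differed by -0.03 at the high dose (SE 0.11, limma adjusted p = 0.949) and was well above background in all vehicle and high dose mice. The furthest were Abcb1a, an efflux pump, at 0.40 (SE 0.15, adjusted p = 0.165), and Abcc3, a conjugate exporter, at -0.45 (SE 0.12, adjusted p = 0.0357), which was under the fold limit.

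The nearest protein-coding genes with a probe were Cdh16, Rrad and Ciao2b on one side of the Ces2 run and Ces3a, Ces3b and Ces4a on the other. The latter 3 were well above background on 0 of 18 arrays, so that on their side nothing could be measured. Of the former 3, 1 was called, Cdh16, a cadherin, which fell by 0.60 at the high dose (SE 0.17, limma adjusted p = 0.0424). At that dose 448 of all 55681 probes were called lower.

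The named genes most like Ces2e over the 18 mice, by the root mean square difference of their log2 changes from the vehicle mean among 13466 genes, were Cdkn1a, the cell cycle inhibitor p21 (0.44), Gdf15, a secreted stress cytokine (0.49), Dbp, a transcription factor with a daily rhythm (0.58), Mmrn2, a matrix protein of endothelium (0.80) and Phlda3, a regulator of Akt signalling (0.89). Their differences from vehicle at the high dose were 2.47, 2.88, 2.22, 1.96 and 1.66 on the log2 scale, beside 2.67 for Ces2e. Ces2c was eighth in this order at 0.96 and Ces2b was 23 at 1.24. The remaining members with a probe well above background were at 1.62 to 1.88. This measure depends on the size of the changes, and Ces2e was chosen for its rise. Genes with large rises therefore come first by construction, and whether they share more with Ces2e than the size of the rise was not tested.

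Markers of cell types were set beside these results. Of the markers of liver, fat, intestine and lung cell types, 1 was called, the endothelial marker Pecam1, which rose by 0.69 (limma adjusted p = 0.00097) and 0.74 (adjusted p = 0.0006) in the medium and high groups. The other endothelial markers were not called, and their differences in both groups were below 0, Cdh5 at -0.23 and -0.10, Cldn5 at -0.19 and -0.19 and Tie1 at -0.14 and -0.17. The macrophage receptor Marco differed by 0.70, 1.09 and 1.25 at the 3 doses (SE 0.46, 0.43 and 0.46, limma adjusted p = 0.759, 0.204 and 0.152) and was not called. The 4 macrophage markers, with Marco among them, had median differences of only 0.12, 0.13 and 0.11. The lowest of them was at -0.19, -0.28 and -0.17. Markers of alveolar type 2 cells had median differences of -0.07, -0.35 and -0.17 at the 3 doses, and those of club cells 0.04, -0.30 and -0.08. In medium dose mice all of these markers were below 0, at -0.36 to -0.18 and at -0.46 to -0.13. There limma's unadjusted p was under 0.05 for 3 of 5 and 1 of 4 of them, beside 15.3% of all probes. The 6 liver markers had median differences of -0.07, -0.09 and -0.05 at the 3 doses. Apob was at -0.55, -0.28 and -0.55 (SE 0.16, 0.15 and 0.16, limma adjusted p = 0.238, 0.383 and 0.0505) and was not called. All 4 high dose mice lay below all vehicle mice for Apob. Alb was above 0, at 0.16, 0.31 and 0.27. Cy5 intensities were also summed over markers after normalization, without background subtraction. The sum of the 6 liver markers was 650 to 1440 in vehicle, 457 to 931 in low dose, 487 to 1100 in medium dose and 467 to 1410 in high dose mice. For the 4 intestinal markers it was 314 to 378 in vehicle, 332 to 372 in low dose, 338 to 379 in medium dose and 303 to 372 in high dose mice, so that the groups overlapped for both lists. The intestinal markers were dim, with vehicle medians of 80 for Apoa4, 85 for Alpi, 103.5 for Vil1 and 114 for Fabp2 before normalization. Local background is a large part of such values, so the overlap cannot show whether intestinal RNA changed. For the 7 fat markers the sum was 2340 to 8370 in vehicle, 2160 to 3480 in low dose, 1240 to 7290 in medium dose and 1630 to 19600 in high dose mice, with Lep, leptin, well above background on 0 of 18 arrays. For the 4 endothelial markers the sums were 53600 to 70800 in vehicle and 60200 to 81600 in high dose mice. The part of these markers in the values of Ces2e, Ces2c and Ces2b was not tested.

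The size of the differences moved with the way the arrays were processed. At the high dose Ces2e was between 2.50 with median centring and 3.15 with the scanner software's ratios, and Ces2c between 1.38 with Cy5 alone and 1.64 with the scanner software's ratios. Ces2b was between 0.95 with Cy5 alone and 1.41 with the scanner software's ratios. The order of these 3 genes by size was the same under each of these settings, as the plot by processing shows.

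**Figure D5:**
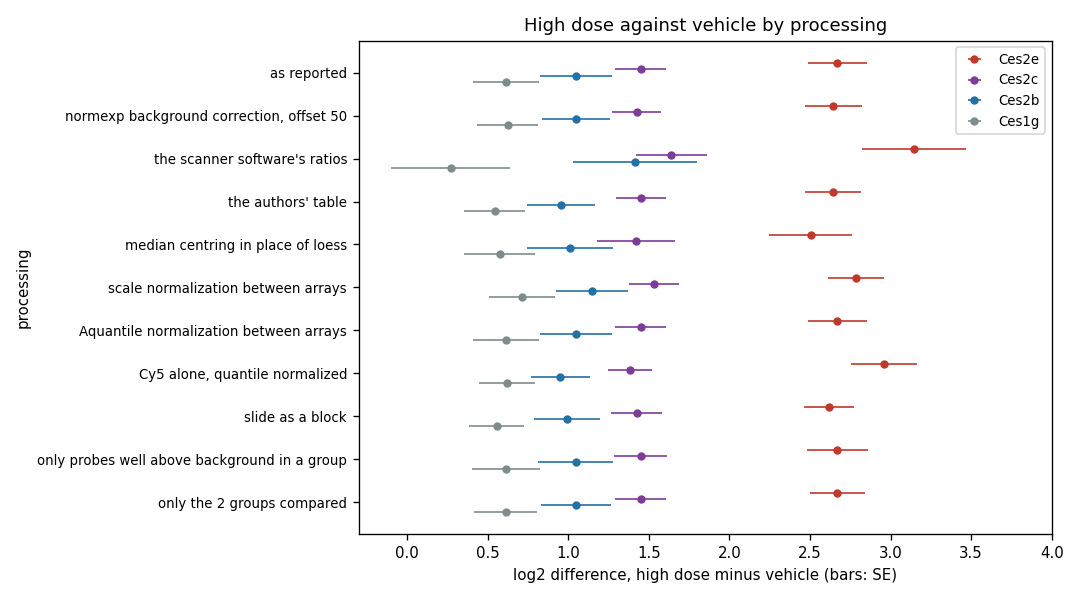
Log2 difference of the high dose from vehicle (horizontal axis, bars are the SE) for Ces2e, Ces2c, Ces2b and Ces1g under each way of processing the arrays (vertical axis). Ces2e stays between 2.50 and 3.15 and Ces2c between 1.38 and 1.64, while Ces1g ranges from 0.27 to 0.72.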

How the data were processed

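Lung RNA of 18 mice was measured on 2-colour arrays. Per array, the authors deposited median intensities of both channels and of the local background, neither subtracted nor normalized, as written by Feature Extraction 11.0.1.1, with that software's background-subtracted and dye-normalized log10 ratio of Cy5 over Cy3. They also deposited a table of normalized log2 ratios. Set against the scanner values it ran as Cy5 over Cy3 (slope 0.991 to 0.996 on the loess ratios, column medians -0.03 to -0.02), and it was used as an alternative. Columns of fold changes or p-values by the authors were not used.

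Log2 ratios of these intensities were normalized by loess within arrays in R 4.3.3 with limma 3.58.1, without background subtraction, as the study's methods state. Outlier spots (215 to 307 per array) had no weight, controls were left out and spots of a probe were averaged. The 4 groups were fitted together with limma over 55681 probes, with Benjamini-Hochberg adjustment within each comparison. Calls needed an adjusted p of at most 0.05 and a 1.5-fold change. Limma stands in for the shrunken-variance permutation test of the study. The dyes were not swapped. Mouse numbers are unique to a mouse, each array is 1 mouse, and precision is limited by the number of arrays.

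Probes were named through RefSeq accessions (27235 probes, 20660 genes). The genes named are each member, called or furthest genes of the lists, 3 neighbours on each side of the Ces2 run and the 5 genes most like Ces2e; Ces2f, Cyp2b10 and the cell markers singled out were chosen after their values were seen. The neighbours of the Ces1 run are not reported here. The lists were other carboxylesterases, other ester hydrolases, CAR and PXR with targets, and cell type markers. Members and lists were chosen with earlier results of these data known. Alternatives were normexp (offset 50), the authors' table, the scanner software's ratios, median centring, scale or Aquantile normalization, Cy5 alone, the slide as a block, a filter on dim probes, the 2 groups alone, no fold limit, any probe of a member, and each mouse left out. The fit was tested on simulated data. Promoters were read from a RefSeq table and aligned with Biopython.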

Additional observations from a re-analysis of the deposited data

Results flagged for a closer look

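In 3 of 52 groups of member values, 1 mouse lay far from the other mice of its group, and chance alone marks about 1 in 20 groups. High dose mouse 18 had a log2 ratio of 6.68 for Ces1d, where the other high dose mice were at 7.00 to 7.04. High dose mouse 16 had 2.56 for Ces1g, where the others were at 1.69 to 1.79. High dose mouse 18 had -0.19 for Ces2a, where the others were at -0.06 to -0.04, on a probe not well above background in that group. Mouse 18 was also the lowest high dose mouse for Ces2b and Ces2c, and mouse 16 the highest for Ces2b and Ces2c.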

How the results depend on the processing

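The number of members called higher at the low dose fell from 2 to 1, Ces2e, with the scanner software's ratios and with median centring, and was 1 to 2 with single mice left out. At the medium dose it was 3 throughout the single mice left out, and at the high dose 3 to 4, and at both doses it was 2, without Ces2b, with the scanner software's ratios and with median centring. Over the 240 values recomputed under other settings, 229 kept their direction and side of the threshold, 6 lost and 2 gained a call and 3 reversed, and of the 224 with a mouse left out, 214, 5, 1 and 4 did. The reversals at the high dose were Ces1d at -0.046 and Ces1e at -0.13 with the scanner software's ratios, Ces1e at -0.016 with the slide as a block, at -0.04 without vehicle mouse 3 and at -0.068 without vehicle mouse 4 (up to 0.123 without others), and Ces1f at -0.030 without vehicle mouse 3 (up to 0.40). At the medium dose Ces1f was at -0.039 without vehicle mouse 3 (up to 0.40). None of these was called. Over all probes, loess gave 36 higher and 14 lower calls at the low, 155 and 249 at the medium and 222 and 448 at the high dose, where median centring gave 3 and 0, 28 and 4, and 69 and 11, and the scanner software's ratios 29 and 4, 312 and 384, and 438 and 637. The causes were not tested. Aquantile normalization leaves the ratios as they are by construction. No paired analysis was possible because mouse numbers are not shared between groups. The part of background in the differences of dim probes such as Ces2b, Ces1g and the lesser Ces2c probes was not tested, and Ces1c and Ces2a could not be measured.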
